A study of Mus musculus with 8 samples.

Results

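Genes of the perichondrium, of tendon and of fibroblasts were followed in the growth plate cartilage of mice with and without a mitochondrial defect in cartilage. The list held 36 genes, and all 36 were measured among 23107 features tested. A gene entered when a probe of 1 of its RefSeq transcripts was flagged as well above background on 4 or more of the 8 arrays. The rule itself used no difference between genotypes, but the genes were listed with earlier results of these data known. RNA came from femoral growth plates of littermate mice at 12 days of age, 4 labelled Cre and 4 labelled CreTW, with 100 ng per 1-colour (Cy3) Agilent array. Neither genotype is explained in the labels. From background knowledge of the study, Cre recombinase is made under the Col2a1 promoter, which is active in cartilage, in all 8 mice. CreTW mice additionally carry a mutant Twinkle, the helicase that copies mitochondrial DNA, which Cre switches on. The labels do not say whether the perichondrium was removed.

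The perichondrium is the fibrous sheath that wraps cartilage. Its fibroblast-like cells lay down collagens I, III, V and VI, feed new chondrocytes to the growing bone and continue into the tendons and ligaments that insert beside it. Tendon cells are set up by the transcription factors scleraxis and mohawk, and fibroblasts of loose connective tissue are recognised by surface proteins such as THY1, podoplanin, PDGFRA and CD34. Chondrocytes make several of the same matrix proteins, and osteoblasts make collagen I, so no gene of the list belongs to 1 cell type alone. In bulk RNA, fewer cells of a type and less RNA per cell cannot be told apart.

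Levels below are log2 intensities minus the array's 75th percentile, so a level of 0 is the 75th percentile of that array and levels of different genes are not comparable. Differences are CreTW minus Cre on the log2 scale with the SE, n = 4 arrays per genotype. Each p-value was given by limma, adjusted by Benjamini and Hochberg's method across 23107 features, and called at 0.05. The share of probes well above background was 45.4% to 57.9%, and no probe was saturated. Of the 36 genes, 35 were well above background on all 8 arrays. The mean correlation between arrays across all features was 0.986 within a genotype and 0.982 between genotypes. The labelled tissue was checked with 15 chondrocyte markers. All 15 were measured, and their summed level (linear scale, the array's 75th percentile being 1) was 2600 to 4323 in Cre and 2649 to 3391 in CreTW cartilage.

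Most of the fibrous genes were somewhat higher in CreTW cartilage, and 1 passed the test. The surface protein gene Thy1 rose 1.52-fold, and no listed gene fell. Of all features, 0.346% passed, 0.229% higher and 0.117% lower. Differences were positive for 27 of the 36 genes and negative for 9, against 48.4% positive among all features, and their median was 0.24 against -0.01 over all features. For 11 of the 36 genes every CreTW array lay above every Cre array, and for 0 the reverse held, against 3.89% and 2.81% of all features. Without adjustment 13 of the 36 had p under 0.05, as did 10.7% of all features. Because the list was made with earlier results known, these shares describe it and do not test it. The 35 genes that did not pass had adjusted p-values of at least 0.0822, and for 23 of the 36 the 95% interval of the difference included 0. On each CreTW array the median gene of the list lay above its Cre mean, by 0.24 on replicate 1, 0.27 on replicate 2, 0.27 on replicate 3 and 0.19 on replicate 4.

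**Figure D1:**
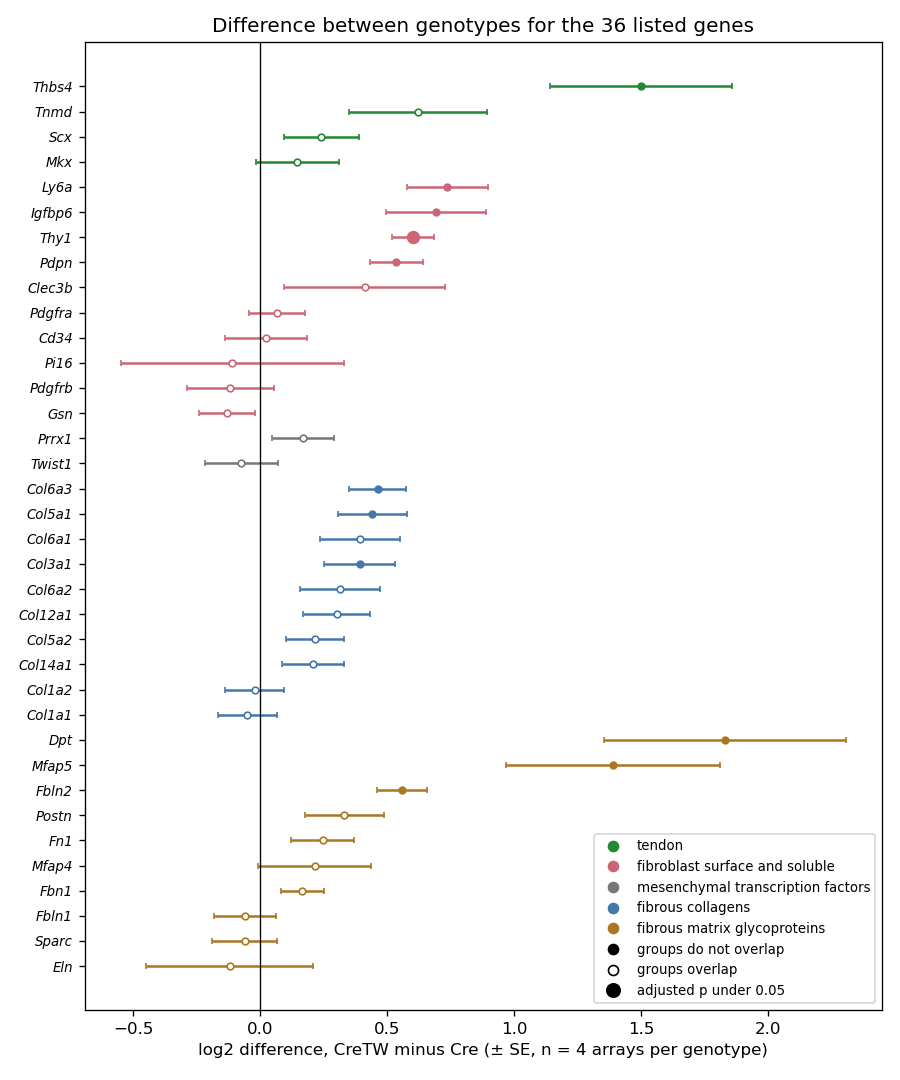
Log2 difference between CreTW and Cre (horizontal axis, points with ± SE, n = 4 arrays per genotype) for the 36 genes, grouped by role. Filled points are the 11 genes whose genotypes did not overlap. The large point is Thy1 at 0.60, and the collagen I chains sit at -0.05 and -0.02 beside the other collagens at 0.21 to 0.46.

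Markers of other cells differed between the arrays as well. All 17 skeletal muscle markers were measured, and their summed level was 31.8 to 102 on the Cre arrays. On the CreTW arrays it was 46.2, 671, 396 and 229 for replicates 1 to 4, so replicate 1 lay inside the Cre range. All 10 markers of smooth muscle and pericytes were measured. Their summed level was 70.0 to 95.7 on the Cre and 93.8 to 112 on the CreTW arrays, and the mean of their centred log2 levels did not overlap between genotypes (-0.70 to -0.08 against 0.20 to 0.54). Of 10 osteoclast markers 9 were measured, at 427 to 1190 in Cre and 282 to 1032 in CreTW. Of 10 osteoblast and osteocyte markers other than collagen I, 9 were measured, at 152 to 315 in Cre and 163 to 362 in CreTW. Endothelial markers (10 of 10, 63.6 to 94.5 against 61.9 to 90.4) and nerve and Schwann cell markers (9 of 10, 76.9 to 143 against 68.3 to 114) overlapped. Adipocyte markers were sparse, with 5 of 10 measured and Retn and Ucp1 not well above background on any array. Erythroid markers (4 of 8 measured, 309 to 530 against 184 to 443), macrophage markers (9 of 10, 32.7 to 77.3 against 27.3 to 59.5) and marrow myeloid markers (9 of 11, 3.47 to 87.6 against 7.38 to 30.0) overlapped too. The part of these cells in the differences below was not tested.

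**Figure D2:**
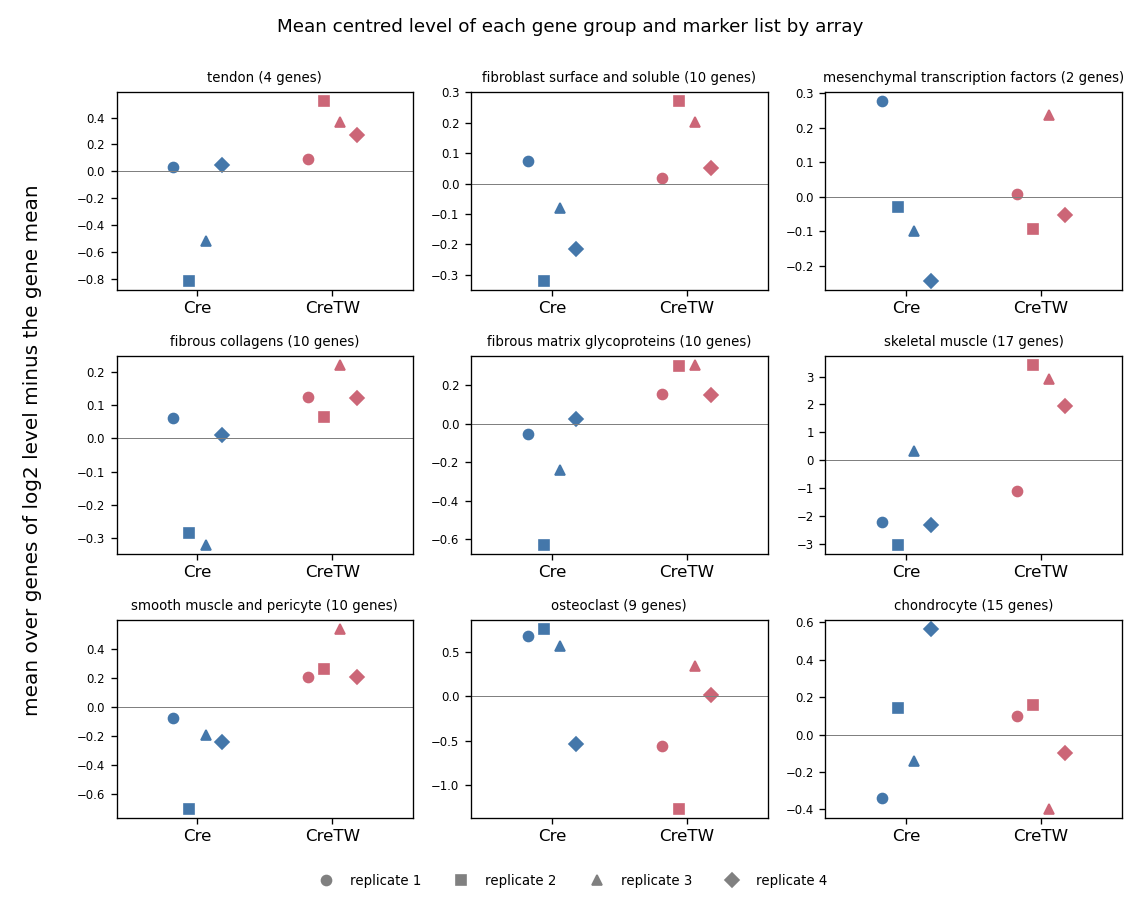
Mean centred log2 level (vertical axis, mean over the genes of a list of the level minus the gene's mean over 8 arrays) on each of the 8 arrays, for the 5 groups of listed genes and 4 lists of cell markers, the chondrocyte markers among them. Points are arrays and symbols are replicates. Cre replicates 2 and 3 are lowest for tendon genes (-0.81 and -0.52), and CreTW replicate 1 stands apart from the other CreTW arrays for skeletal muscle markers (-1.10 against 1.93 to 3.43).

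Promoter sequence was at hand for 22 of the 36 genes, as 27 RefSeq windows of 300 bases on build GRCm38.p6. Those below are the 250 bases before the transcription start of the 2 matrix and tendon genes with the largest differences (Dpt and Thbs4), of the 2 genes with the lowest adjusted p-values among those with a window (Fbln2 and Pdpn), and of Col1a2, whose level hardly differed, for comparison. Each is written 5′ to 3′ on the gene's strand, and capitals mark the letters CANNTG (E-box), the core that basic helix-loop-helix factors such as scleraxis and TWIST1 bind. The windows are chr1:164796413-164796662, plus strand (Dpt), chr13:92794819-92795068, minus strand (Thbs4), chr6:91212514-91212763, plus strand (Fbln2), chr4:143299565-143299814, minus strand (Pdpn) and chr6:4505368-4505617, plus strand (Col1a2).
Dpt: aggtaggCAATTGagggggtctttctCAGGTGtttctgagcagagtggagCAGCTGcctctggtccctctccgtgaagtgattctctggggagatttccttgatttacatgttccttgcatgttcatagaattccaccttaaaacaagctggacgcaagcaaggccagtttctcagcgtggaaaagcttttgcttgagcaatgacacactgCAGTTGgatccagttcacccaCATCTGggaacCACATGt
Thbs4: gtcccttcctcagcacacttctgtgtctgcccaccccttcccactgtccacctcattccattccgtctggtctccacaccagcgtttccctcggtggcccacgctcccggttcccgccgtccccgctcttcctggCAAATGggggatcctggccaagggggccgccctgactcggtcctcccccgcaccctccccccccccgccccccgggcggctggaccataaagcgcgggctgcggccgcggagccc
Fbln2: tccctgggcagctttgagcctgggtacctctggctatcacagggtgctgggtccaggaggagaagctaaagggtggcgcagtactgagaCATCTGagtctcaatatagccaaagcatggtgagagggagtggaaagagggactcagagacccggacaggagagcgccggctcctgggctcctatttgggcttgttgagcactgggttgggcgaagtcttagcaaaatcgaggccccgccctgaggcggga
Pdpn: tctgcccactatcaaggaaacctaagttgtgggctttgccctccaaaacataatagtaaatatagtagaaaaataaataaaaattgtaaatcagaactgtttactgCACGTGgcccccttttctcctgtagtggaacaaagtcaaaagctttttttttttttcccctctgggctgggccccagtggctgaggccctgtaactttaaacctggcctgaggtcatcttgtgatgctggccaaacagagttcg
Col1a2: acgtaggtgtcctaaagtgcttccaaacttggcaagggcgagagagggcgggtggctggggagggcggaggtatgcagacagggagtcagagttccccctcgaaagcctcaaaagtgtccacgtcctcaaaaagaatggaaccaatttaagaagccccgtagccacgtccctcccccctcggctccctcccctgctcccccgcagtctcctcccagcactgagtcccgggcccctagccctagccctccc
The Dpt stretch held 6 such matches, those of Thbs4, Fbln2 and Pdpn 1 each and that of Col1a2 0. Col1a2 does not stand for all genes that hardly differed. Whole windows of genes whose genotypes did not overlap held from 0 (Col5a1, Col6a3) to 7 matches (Dpt). Those of the other listed genes held from 0 (Col1a2 among them) to 3 (Sparc and 1 window of Gsn). Whether the matches go with the differences was not tested. Over whole windows of 300 bases, CANNTG occurred in 59.3% of the 27 windows of listed genes and in 72.3% of 32851 windows in the table. It reads the same on both strands. Within it, CAGCTG occurred in 29.6% of the listed genes' windows and 16.3% of all, and CATCTG in 22.2% and 17.2%. The letters TATAAA, searched on both strands as were all of these, occurred in 18.5% against 13.6%, and CAGAC, the SMAD box, in 63.0% against 49.6%. These are matches of letters and not sites shown to be bound.

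The 4 tendon genes all had positive differences (48.4% of all features did), with a median of 0.43. In limma's test 0 passed, against 0.346% of all features, and 1 had an unadjusted p under 0.05, against 10.7% of all features. Thbs4, which encodes the secreted matrix protein thrombospondin 4 of tendon and muscle attachments, had the largest difference. Thbs4 stood at 2.36, 1.05, 1.36 and 2.30 on Cre replicates 1 to 4 and at 2.57, 3.54, 3.74 and 3.23 on CreTW replicates 1 to 4. The genotypes did not overlap, but Cre replicates 1 and 4 came close to CreTW replicate 1, the nearer within 0.20. The difference was 1.50 ± 0.36 (2.83-fold, adjusted p = 0.204). Tnmd encodes tenomodulin, a membrane protein of mature tendon cells. Tnmd read 2.06, 1.13, 1.33 and 2.25 in Cre and 1.93, 2.62, 2.22 and 2.49 in CreTW. Its genotypes overlapped, with Cre replicates 2 and 3 lowest, and differed by 0.62 ± 0.27 (adjusted p = 0.466). Scx, the gene of scleraxis, read 3.02, 2.49, 2.70 and 2.94 in Cre and 3.32, 3.01, 2.86 and 2.93 in CreTW. These values overlapped as well, at a difference of 0.24 ± 0.15 (adjusted p = 0.599, 95% interval -0.10 to 0.58). The slide had 2 rows of arrays, each with 2 arrays of either genotype, and Scx differed by 0.41 within row 1 and by 0.07 within row 2, and 0.14 without either Cre replicate 2 or CreTW replicate 1. Mkx, the gene of mohawk, differed by 0.15 ± 0.16, and its second probe gave 0.48. The tendon genes thus ranged from 0.15 to 1.50, and for each of them Cre replicate 2 was the lowest of the Cre arrays. On CreTW replicate 1, the array with muscle markers inside the Cre range (46.2), Thbs4 lay 0.80 above the Cre mean, against 1.46 to 1.97 on the other CreTW arrays. This is 1 array, and the part of muscle in the difference was not tested.

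Of the 10 genes of the fibroblast surface and of soluble fibroblast proteins 1 rose and 0 fell. Among all features 0.229% rose and 0.117% fell, and 48.4% had positive differences. Of the 10 genes' differences 7 were positive and 3 negative, with a median of 0.24, and the 95% intervals of the 3 negative ones included 0. Thy1, the gene of a GPI-anchored glycoprotein of fibroblasts and mesenchymal progenitors, read 3.73, 3.64, 3.58 and 3.63 on Cre replicates 1 to 4. On CreTW replicates 1 to 4 Thy1 read 4.32, 4.12, 4.22 and 4.31. All 4 CreTW arrays lay at least 0.39 above the highest Cre array, and the spread within either genotype was small (SD 0.06 in Cre and 0.10 in CreTW). The rise was 0.60 ± 0.08 (1.52-fold, adjusted p = 0.0258). It was 0.54 within slide row 1 and 0.66 within slide row 2. The size held at 0.57 to 0.64 without single arrays, but the call was lost in 7 of those 8 fits (adjusted p 0.0633 to 0.108) and kept only without CreTW replicate 2 (0.043). It was also lost with the slide row as a block (adjusted p = 0.0639) and without the filter on dim probes (0.271). On CreTW replicate 1, with muscle markers inside the Cre range, Thy1 lay 0.68 above the Cre mean, and on the other CreTW arrays 0.47 to 0.67 above it. Likewise Pdpn lay 0.48 above its Cre mean (0.48 to 0.68 on the others) and Fbln2 0.59 (0.48 to 0.59). For Dpt it was 1.58 (1.74 to 2.07) and for Mfap5 1.14 (0.78 to 1.95). The part of muscle in these differences was not tested.

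Pdpn encodes podoplanin, a mucin-like membrane protein of fibroblasts, osteocytes and lymphatic endothelium. Pdpn read 2.78, 2.41, 2.46 and 2.53 in Cre and 3.03, 3.05, 3.02 and 3.22 in CreTW. The genotypes did not overlap, with Cre replicate 1 nearest to the CreTW arrays. The difference was 0.54 ± 0.10 (1.45-fold, adjusted p = 0.118), and it passed with eBayes using trend and robust fitting (0.0345) and after normexp background correction (0.0376). Ly6a, the gene of the progenitor and endothelial surface antigen SCA-1, read -0.09, -0.42, 0.06 and -0.13 in Cre and 0.63, 0.75, 0.80 and 0.18 in CreTW. CreTW replicate 4 lay within 0.12 of the highest Cre array, and the difference was 0.74 ± 0.16 (adjusted p = 0.175), or 0.509 after normexp correction. Ly6a belongs to a family of similar genes, so its probe may not read it alone. Igfbp6 encodes a binding protein with a preference for IGF2 that tendon and perichondrial fibroblasts secrete. Igfbp6 read 3.06, 2.39, 2.64 and 3.19 in Cre and 3.25, 3.83, 3.51 and 3.46 in CreTW. Its genotypes were separated by only 0.06, at a difference of 0.69 ± 0.20 (adjusted p = 0.269).

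For the remaining genes of the fibroblast surface and soluble group the genotypes overlapped. Pdgfra, a receptor of platelet-derived growth factor on fibroblast progenitors, read 2.23, 1.74, 1.91 and 1.94 in Cre and 1.96, 2.07, 2.01 and 2.04 in CreTW. All CreTW values lay inside the Cre range, at a difference of 0.07 ± 0.11 (95% interval -0.18 to 0.32). Pdgfrb, the receptor of pericytes and fibroblasts, read 3.14, 2.84, 2.99 and 2.43 in Cre and 2.65, 2.49, 3.02 and 2.76 in CreTW, which overlapped at -0.12 ± 0.17 (-0.26 to -0.02 without single arrays). Its difference was -0.42 within slide row 1 and 0.18 within slide row 2. Gsn, the gene of the actin-severing protein gelsolin, read 5.51, 5.32, 5.36 and 5.24 in Cre and 5.17, 5.03, 5.44 and 5.28 in CreTW. These overlapped too, at -0.13 ± 0.11 (-0.20 to -0.06 without single arrays), and the second probe of Gsn gave 0.02. Cd34, of progenitor fibroblasts and endothelium, differed by 0.02 ± 0.16, Pi16, of adventitial fibroblasts, by -0.11 ± 0.44 and Clec3b, the gene of tetranectin, by 0.41 ± 0.32. The intervals of Pi16 (-1.11 to 0.89) and Clec3b (-0.31 to 1.14) were wide. Neither mesenchymal transcription factor passed limma's test (0 of 2, against 0.346% of all features). At an unadjusted p under 0.05 it was 0 of 2, against 10.7%. Prrx1, active in limb bud mesenchyme, differed by 0.17 ± 0.12 and Twist1, which restrains bone differentiation, by -0.07 ± 0.15.

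**Figure D3:**
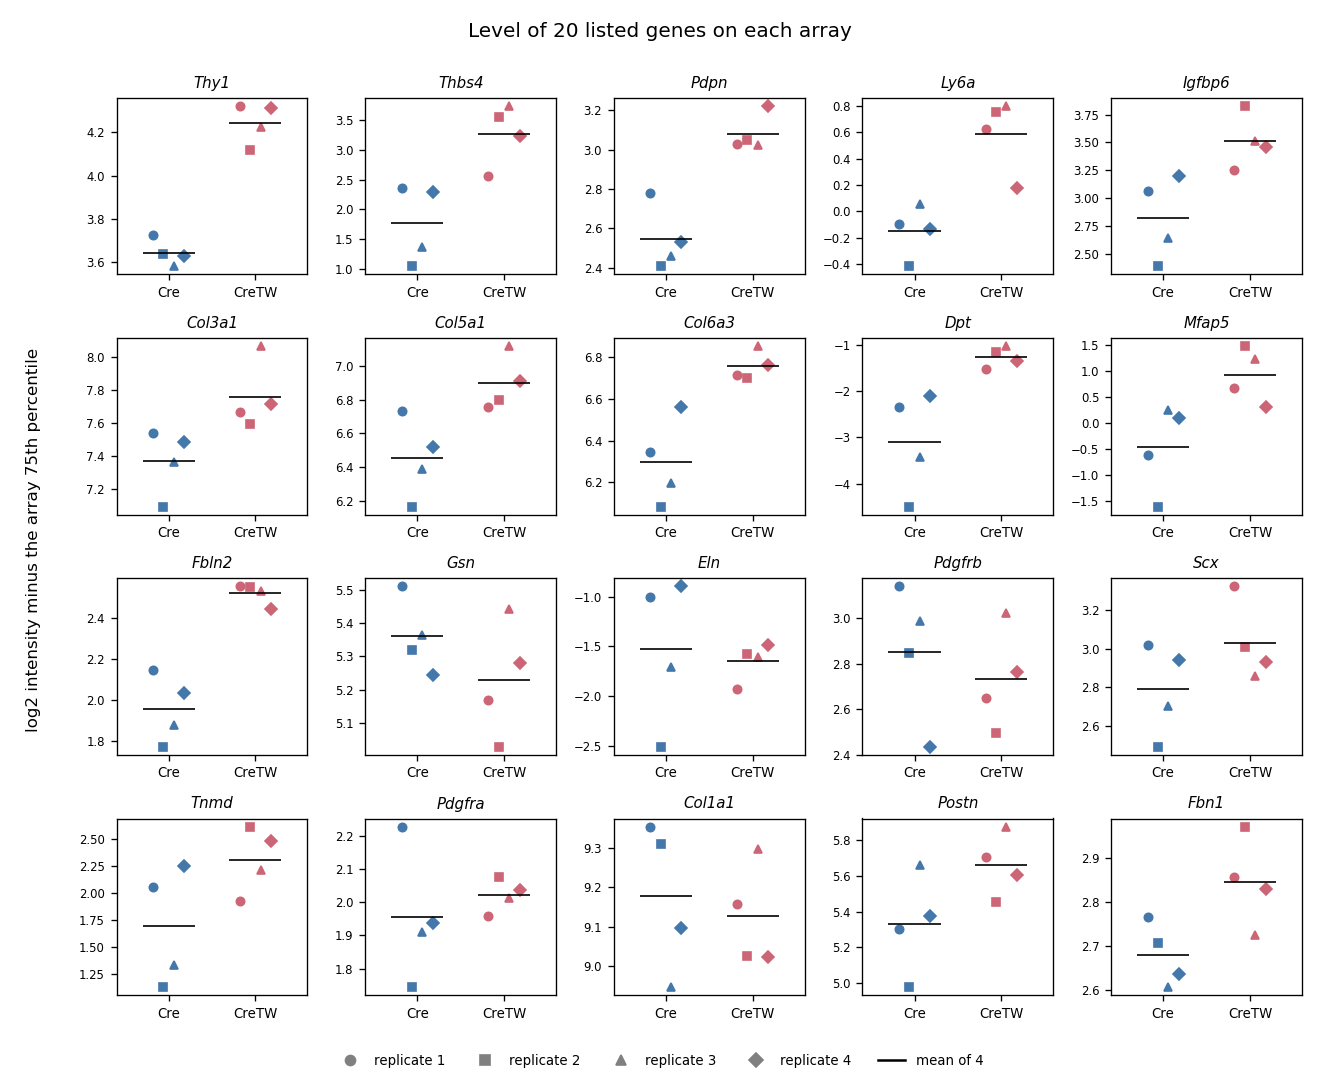
Levels of 20 listed genes on each array (vertical axis, log2 intensity minus the array's 75th percentile, with a scale of its own for each gene) by genotype. Points are arrays, symbols are replicates and lines are means of 4 arrays. The lowest CreTW array lies 0.59 above the highest Cre array for Dpt, 0.39 for Thy1 and 0.29 for Fbln2, against 0.20 for Thbs4 and 0.06 for Igfbp6. For Dpt, Thbs4 and Igfbp6 Cre replicates 1 and 4 are the 2 highest Cre arrays.

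Of the 10 fibrous collagens 8 had positive differences (48.4% of all features did), with a median of 0.31. In limma's test 0 passed, against 0.346% of all features, and 5 had an unadjusted p under 0.05, against 10.7% of all features. The 2 chains of collagen I, the main collagen of perichondrium, tendon and bone, did not share the direction. Col1a1 read 9.35, 9.31, 8.95 and 9.10 in Cre and 9.16, 9.03, 9.30 and 9.02 in CreTW. The genotypes overlapped at -0.05 ± 0.12 (95% interval -0.32 to 0.22), and Col1a2 was at -0.02 ± 0.12 (-0.28 to 0.24). Within slide rows 1 and 2 Col1a1 differed by -0.24 and 0.14. Col3a1, the collagen of young and elastic fibrous tissue, read 7.54, 7.09, 7.36 and 7.48 in Cre and 7.67, 7.59, 8.07 and 7.71 in CreTW. Its genotypes were separated by 0.06, at 0.39 ± 0.14 (1.31-fold, adjusted p = 0.368). Col5a1 encodes a chain of collagen V, which starts collagen I fibrils. Col5a1 read 6.74, 6.17, 6.39 and 6.52 in Cre and 6.76, 6.80, 7.12 and 6.91 in CreTW, a gap of only 0.02 between the genotypes and a difference of 0.44 ± 0.14 (adjusted p = 0.308). Its partner chain Col5a2 differed by 0.22 ± 0.11.

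Collagen VI forms beaded filaments around cells, in fibrous tissue and around chondrocytes. Its 3 listed chains lay close together, with Col6a1 at 0.39 ± 0.16, Col6a2 at 0.31 ± 0.16 and Col6a3 at 0.46 ± 0.11. Col6a3 read 6.35, 6.08, 6.20 and 6.56 in Cre and 6.72, 6.70, 6.86 and 6.76 in CreTW. For Col6a3 the genotypes did not overlap (1.38-fold, adjusted p = 0.214), and its 2 probes gave 0.46 and 0.47. Within slide rows 1 and 2 the 3 chains gave 0.41 and 0.38 (Col6a1), 0.31 and 0.31 (Col6a2) and 0.49 and 0.43 (Col6a3). The fibril-associated collagens of dense connective tissue, Col12a1 and Col14a1, differed by 0.30 ± 0.13 and 0.21 ± 0.12, and the second probe of Col12a1 gave 0.46. Among the collagens the Cre arrays were the more spread. The SD over arrays was larger in Cre than in CreTW for 8 of the 10, with median SDs of 0.22 and 0.13, and for 26 of all 36 listed genes (72.2%), against 52.5% of all features. This spread was not tested.

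Of the 10 fibrous matrix glycoproteins 7 had positive differences (48.4% of all features did), with a median of 0.23. In limma's test 0 passed, against 0.346% of all features, and 3 had an unadjusted p under 0.05, against 10.7% of all features. Fbln2, the gene of fibulin 2, which links fibrillin and fibronectin networks, came nearest to passing. Fbln2 read 2.15, 1.77, 1.88 and 2.03 in Cre and 2.55, 2.55, 2.53 and 2.44 in CreTW. The 4 CreTW arrays lay close together, 0.29 or more above the highest Cre array. The difference was 0.56 ± 0.10 (1.47-fold, adjusted p = 0.0822), and it passed with eBayes using trend and robust fitting (0.0219) and after normexp correction (0.0108). Dpt encodes dermatopontin, which binds decorin and is abundant in dermis and fascia. Dpt read -2.33, -4.50, -3.43 and -2.11 in Cre and -1.52, -1.16, -1.02 and -1.35 in CreTW. Of the Cre arrays 3 of 4 measured it well above background, and of the CreTW arrays all 4. Its difference of 1.83 ± 0.48 (3.56-fold, adjusted p = 0.236) became 1.56 when the dim Cre array was given that array's lowest measurable signal, and 0.63 after normexp correction. The 4 Cre values spanned more than the difference itself, with replicate 2 lowest.

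Mfap5, the gene of a microfibril glycoprotein of elastic and fibrous tissue, behaved likewise, with values of -0.61, -1.60, 0.24 and 0.09 in Cre and 0.67, 1.48, 1.22 and 0.31 in CreTW. The gap between the genotypes was 0.07 and the difference 1.39 ± 0.42 (adjusted p = 0.292), at 2.18 within slide row 1 and 0.60 within slide row 2. After normexp correction the difference of Mfap5 was 0.956. Postn, the gene of periostin, named after the periosteum, read 5.30, 4.98, 5.66 and 5.38 in Cre and 5.71, 5.45, 5.88 and 5.60 in CreTW. The genotypes overlapped, at 0.33 ± 0.16 (adjusted p = 0.496) or 0.21 without Cre replicate 2, and its 3 probes gave 0.26 to 0.33. Fbn1, the gene of the microfibril protein fibrillin 1, read 2.77, 2.71, 2.61 and 2.64 in Cre and 2.86, 2.97, 2.72 and 2.83 in CreTW. These overlapped slightly, at 0.17 ± 0.08 (adjusted p = 0.535). Eln, which encodes elastin, read -1.01, -2.50, -1.70 and -0.90 in Cre and -1.93, -1.57, -1.61 and -1.48 in CreTW, with all CreTW values inside the Cre range and a difference of -0.12 ± 0.33. The others were fibronectin (Fn1, 0.25 ± 0.12), Mfap4 (0.22 ± 0.22), fibulin 1 (Fbln1, -0.06 ± 0.12) and Sparc, a collagen-binding protein of bone and cartilage (-0.06 ± 0.13). The second probe of Sparc gave 0.04, and the 2 other probes of Fn1, also above background on all 8 arrays, gave 0.44 and 0.42.

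The same arrays recurred at the ends of the range. Of the 36 genes, Cre replicate 2 was the lowest of the Cre arrays for 19 and Cre replicate 3 for 11. Cre replicate 1 was the highest of them for 18 and Cre replicate 4 for 12. Among CreTW arrays, replicate 3 was the highest for 18. These counts of lowest and highest arrays were not made over all features, so they do not set the list apart from other genes. Cre replicate 2 lies in slide row 1 and Cre replicate 3 in slide row 2. Each row thus keeps 1 of these low arrays, and reading the direction within rows cannot set them aside. Within rows the direction was positive in both for 23 of the 36 genes, opposite for 13 and negative in both for 0. The same count was not made over all features. The median difference was 0.31 within row 1 and 0.25 within row 2, against 0.0022 and -0.0030 over all features. For skeletal muscle markers the mean centred log2 level was lowest on Cre replicate 2 as well (-3.01, against -2.18 on replicate 1, 0.32 on replicate 3 and -2.30 on replicate 4), while their summed level was lowest on Cre replicate 1 (31.8, against 71.6 on replicate 2, 102 on replicate 3 and 59.6 on replicate 4). The part of muscle in this order was not tested.

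Other genes of the same tissues were taken from 6 lists chosen by function, with earlier results of these data known. None of their genes passed limma's test, which 0.346% of all features passed. Among all features 48.4% had positive differences and 10.7% an unadjusted p under 0.05. Of 19 measured further tendon and ligament genes 14 had positive differences (median 0.21, 8 at an unadjusted p under 0.05). The largest were Chodl, the gene of a muscle and tendon membrane lectin, at 2.16 ± 0.46 (adjusted p = 0.153, 3 of 4 Cre arrays above background), and Cilp, of cartilage and tendon matrix, at 2.01 ± 0.60 (adjusted p = 0.286). For Cilp 3 of 4 Cre arrays were above background, and with the dim array treated likewise its difference was 1.61. Of 19 further perichondrium genes 13 were positive (median 0.18, 5 at that level), with the transcription factor Meox2 at 0.77 ± 0.21 and the protease gene Ctsk at -0.62 ± 0.41. Ctsk is also the leading protease of osteoclasts, whose markers, Ctsk among them, summed to 427 to 1190 in Cre and 282 to 1032 in CreTW. The part of osteoclasts in the difference of Ctsk was not tested.

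Of 21 further fibroblast genes 15 were positive (median 0.07, 6 at that level), with the chemokine Cxcl12 at -0.90 ± 0.41 and the complement protease C1s1 at 0.68 ± 0.18. Genes that process and cross-link collagen showed no common direction. Of 23 measured, 10 were positive and 13 negative (median -0.04, 6 at that level), with the prolyl hydroxylase P4ha2 at -0.54 ± 0.21 and the procollagen protease Tll1 at 0.55 ± 0.20. Among 16 genes of elastic fibres and microfibrils 8 were positive (median 0.06, 4 at that level). The largest were Tnxb, the gene of tenascin X, at 1.32 ± 0.44 (adjusted p = 0.346), and fibulin 5 (Fbln5) at 0.59 ± 0.13 (adjusted p = 0.186). Of 19 genes of TGF-beta signalling, a pathway that drives matrix production in fibroblasts, 14 were positive (median 0.15, 3 at that level). Lrrc32, which holds latent TGF-beta on cells, was at 0.42 ± 0.11 (adjusted p = 0.22).

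**Figure D4:**
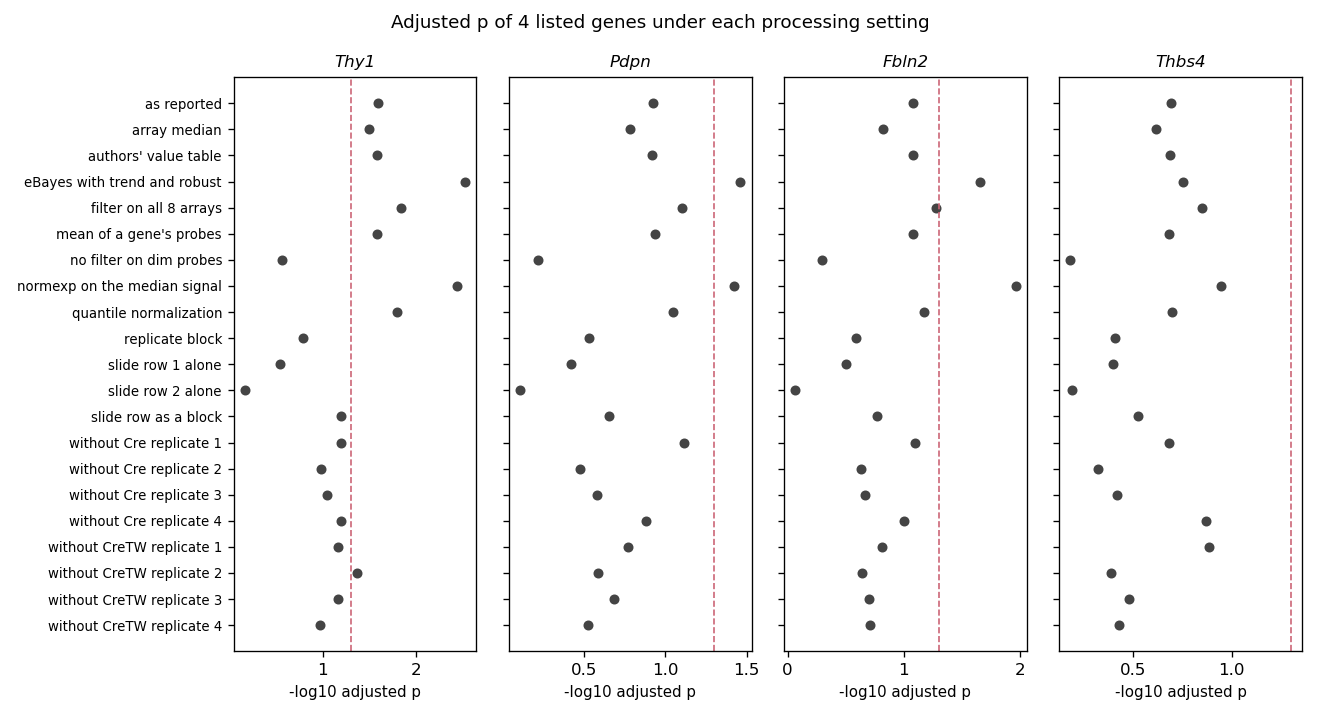
Adjusted p-value from limma (horizontal axis, as -log10, the dashed line marking 0.05) of Thy1, Pdpn, Fbln2 and Thbs4 under the processing reported, 12 alternatives and the 8 fits without single arrays. Thy1 lies to the right of the line as reported and to its left in 7 of the 8 fits without an array, and Thbs4 lies to the left throughout.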

How the data were processed

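The authors extracted each array's intensity with Feature Extraction 11.5.1.1 (Agilent), a program that subtracts background from every spot, and the probes follow build mm9, per the file headers. The authors' deposited table holds log2 values, which on every array differed from log2 of this intensity by 1 constant (r = 1). Its column medians were -3.03 to -2.93. Its genes are not centred, and no direction needs setting because each array holds 1 sample.

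Unflagged spots of a probe were averaged and taken relative to the array's 75th percentile on the log2 scale. Kept were probes well above background on 4 or more arrays of the 8. Of 56605 probes, 32994 matched 1 symbol through RefSeq transcripts of GRCm38.p6, used for names, 0 several and 23611 none. The probe with the highest mean stood for a gene. Genotypes were compared on 8 arrays with limma 3.58.1 in R 4.3.3, tested on simulated data. Each array is 1 mouse, per the labels, and their number limits the precision.

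The listed genes, groups and further lists were chosen with earlier results of these data known. Values per array are given for genes that passed, genes whose genotypes did not overlap, the 3 largest rises and falls and 8 defining genes. From further lists the 2 largest differences are given, except 1 gene that is not reported here. Alternatives were array median, quantile, normexp (offset 50, on the median signal because the mean signal is not among the columns used), the authors' table, no filter, all 8 arrays, the mean of probes, replicate number or slide row as a block, each row alone, eBayes with trend and robust, and leaving out each array.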

Additional observations from a re-analysis of the deposited data

Results flagged for a closer look

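Pdpn was picked out by 1 CreTW array that lay far from the other 3. CreTW replicate 4 read 3.22, the next highest CreTW array 3.05 and the lowest 3.02, so the gap took up 0.875 of the range, above Dixon's critical value for 4 samples. Of 72 groups of 4 arrays examined over the 36 genes this was the only 1, and chance flags about 1 in 20 groups. Without CreTW replicate 4 the difference of Pdpn was 0.49 (limma adjusted p = 0.298).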

How the results depend on the processing

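The number of genes that passed was 1 as reported, where 0.346% of all features passed. It was 3 (Thy1, Pdpn and Fbln2) with eBayes using trend and robust fitting (0.498% of all features) and after normexp correction (0.554%). It was 0 with the slide row as a block (0.229% of all features) and with dim probes left in (0.0592%). Within slide row 1 or 2 alone it was 0 as well, and there 0 of all features passed. It was 0 to 1 without single arrays (0.182% to 0.325% of all features). The number of genes whose genotypes did not overlap, 11 as reported, was 24 within slide row 1 (16 higher and 8 lower, against 24.5% and 24.0% of all features) and 17 within slide row 2 (all higher, against 16.2% of all features), where 2 arrays face 2. It was 11 to 15 without single arrays (all higher, against 4.50% to 8.25% of all features). With the array median it was 9 (all higher, against 2.94% of all features) and with quantile normalization 10 (all higher, against 4.55%). With the filter on all 8 arrays it was 10 (all higher, against 4.13%) and with the mean of probes 13 (all higher, against 3.92%). The median difference was 0.217 to 0.315 over the other alternatives and 0.193 to 0.32 without single arrays. Within the slide rows 13 of the 36 genes had opposite signs, among them Mfap4 (0.44 and -0.01), Mkx (0.36 and -0.06) and Prrx1 (-0.03 and 0.37). All settings were tried for 20 of the genes, and signs turned for 5 of them. Within slide row 1 Eln was at 0.00555, and within row 2 Gsn was at 0.0579, Pdgfrb at 0.183 and Col1a1 at 0.138. Without Cre replicate 1 Eln was at 0.0541 and Col1a1 at 0.00824, without Cre replicate 2 Pdgfra at -0.00479, and without Cre replicate 4 Eln at 0.0916. Over the 8 fits without single arrays Eln ranged from -0.444 to 0.0916, Pdgfra from -0.00479 to 0.156 and Col1a1 from -0.127 to 0.00824. The cause of these changes was not tested. With the replicate number as a block, 0 of the listed genes passed and Thy1 had an adjusted p of 0.164. The labels name no pairing of the mice, and the 4 correlations that follow are too few to decide whether the numbers pair them. Deviations of same-numbered arrays from their genotype means correlated at -0.01, -0.10, 0.31 and -0.03, and 1 of 4 Cre arrays correlated best with its own number. Over all features the block changed the count of calls from 80 to 12.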
